A study of Homo sapiens with 2 samples.

Results

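Crosslink sites of hnRNPM were examined in 7 genes that encode regulators of alternative splicing: HNRNPM itself, RBFOX2, MBNL1, QKI, PTBP3, ESRP1 and CELF1. A site was assigned to a gene when its middle base lay within the GRCh37 limits of that gene, as given with the choice of the 7 genes, and on the transcribed strand. The 7 genes held 240 of the 54373 sites in the list, or 0.441% (exact binomial 95% interval 0.387 to 0.501, counting error only). RBFOX2 had 86 sites, PTBP3 40, MBNL1 34, CELF1 33, QKI 26, HNRNPM 14 and ESRP1 7.

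The sites came from iCLIP of HMLE, an immortalised cell line from human breast epithelium. In this assay ultraviolet light joins a protein to the RNA it touches and the bound RNA is recovered with an antibody, here against hnRNPM. The cells were wild type and had received DMSO, a solvent, and the 2 libraries were biological replicates of this single condition. The deposited list held 1 height per site, named no library and was taken as pooled over both. No spread between replicates can be given, no test was made, and library depth is not known. Every interval covers counting error only and is too narrow, since neighbouring sites are not independent. RNA levels were not measured alongside, so more binding and more RNA from a gene cannot be told apart, and the epithelial identity of the cells could not be checked from markers.

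Splicing regulators are RNA-binding proteins that attach to exons or the introns beside them and raise or lower the use of a splice site. Many bind the unspliced transcripts of their own genes and of each other, so that the regulators form a network. In mammary epithelial cells the shift towards a mesenchymal state is accompanied by changes in exon use, with ESRP1 as a keeper of the epithelial pattern and hnRNPM, RBFOX2, QKI and others linked to the mesenchymal one. The base sequences of the sites were not used here, because no genome sequence of the list's build was at hand.

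The sites of each gene stood apart from all others on their strand, though how usual this is for genes in the list was not examined. Not one site lay on the opposite strand within the limits of any of the 7 genes, and no site of the transcribed strand lay within 50 kb of either end of any of them. The nearest outside site of the same strand was 994 kb upstream of HNRNPM, with a height of 107, and 699 kb downstream, with a height of 8. Around RBFOX2 the distances were 207 kb upstream and 3991 kb downstream, and around MBNL1 1635 kb and 701 kb. QKI had long empty distances on both sides, 2341 kb and 3420 kb. For PTBP3 they were 379 kb and 735 kb, for ESRP1 723 kb and 155 kb, and for CELF1 273 kb and 291 kb. The count of 240 was therefore the same when the genes were widened by 10 kb at each end, and when sites of either strand were counted. Inside the limits, the outermost sites lay close to the gene ends in CELF1, 0.954 kb after its start and 0.122 kb before its end, and in PTBP3, 1.56 kb and 1.77 kb. In MBNL1 they lay far from both, 46.0 kb after the start and 29.9 kb before the end.

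**Figure D1:**
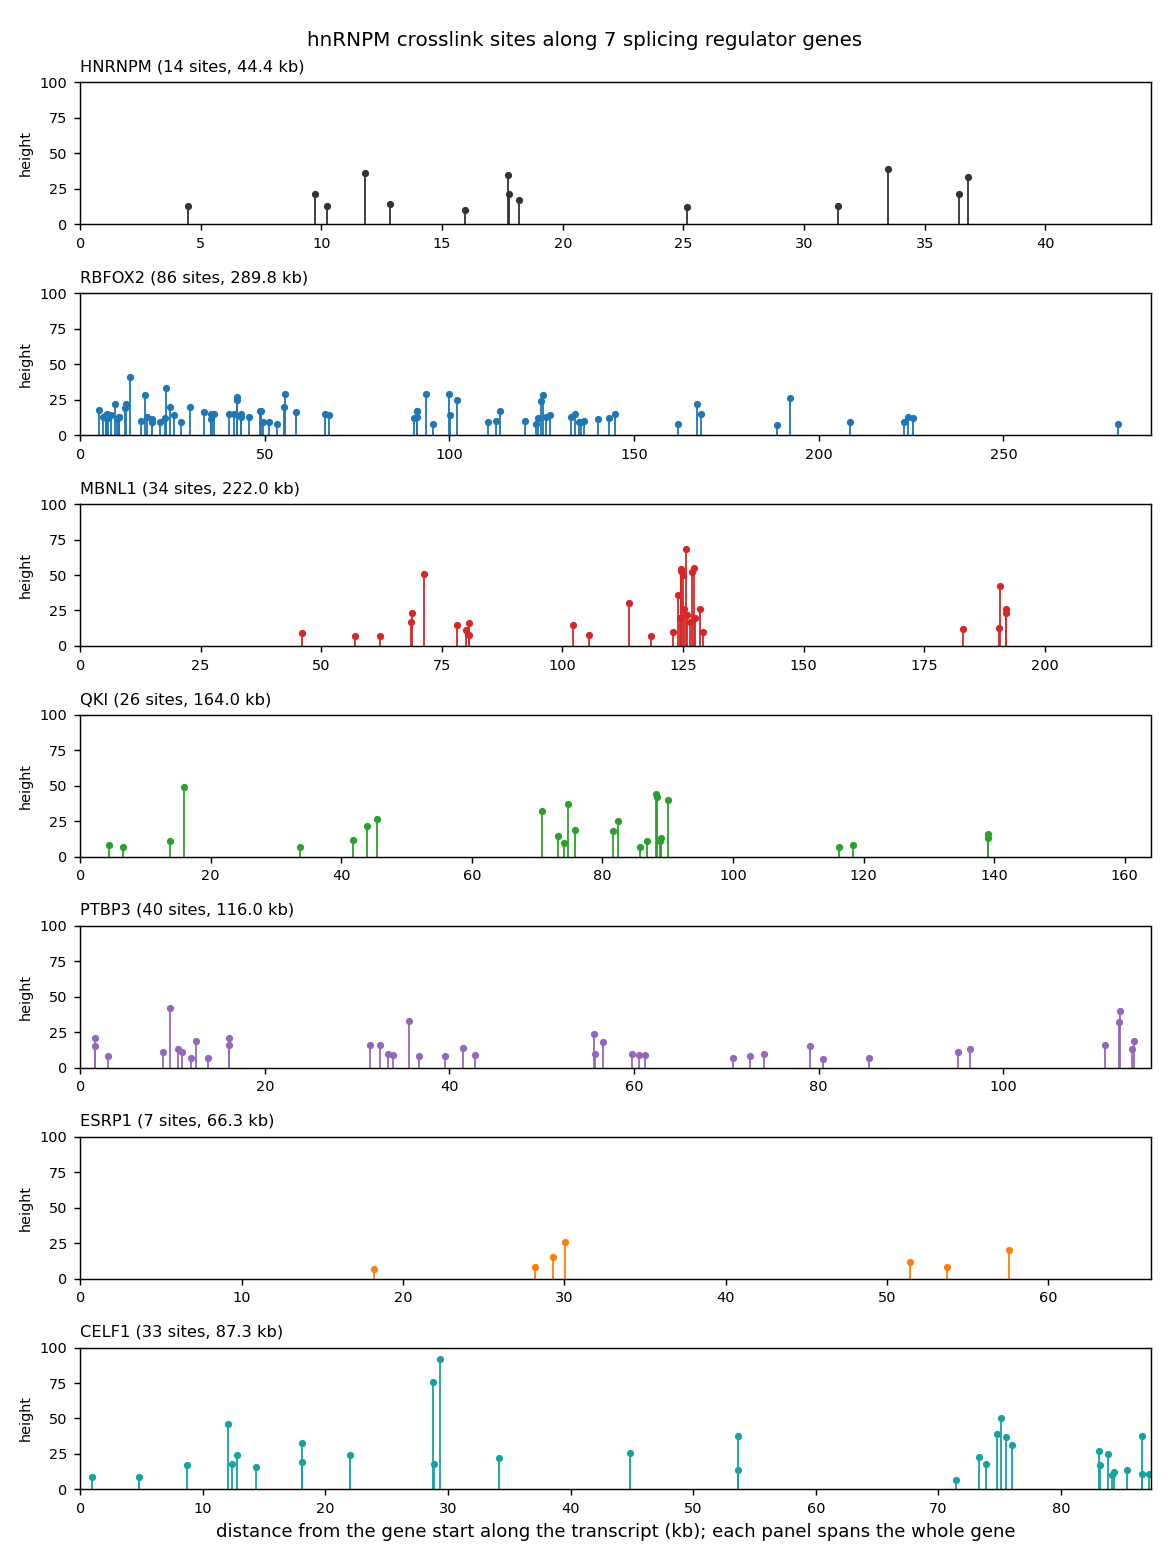
Each panel is 1 gene from its start to its end along the transcript (horizontal axis, kb), and each stick is a crosslink site at the authors' height (vertical axis, 0 to 100 in every panel). The tallest sticks are in CELF1 (92 and 76), the tightest group of tall sticks is in MBNL1 near 125 kb, and RBFOX2 is crowded at its start.

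The genes differed in site density. CELF1 had the highest value, 3.78 sites per 10 kb (exact Poisson 95% interval 2.60 to 5.31). PTBP3 followed with 3.45 (2.46 to 4.70), HNRNPM with 3.16 (1.73 to 5.30) and RBFOX2 with 2.97 (2.37 to 3.66). Then came QKI with 1.59 (1.04 to 2.32), MBNL1 with 1.53 (1.06 to 2.14) and ESRP1 with 1.06 (0.424 to 2.17). The intervals of CELF1, PTBP3 and RBFOX2 did not overlap those of QKI, MBNL1 and ESRP1. This grouping was partly lost when only sites of at least the list's median height were counted. PTBP3 then had 23 sites, or 1.98 per 10 kb (1.26 to 2.98), and ranked behind CELF1, HNRNPM and RBFOX2, and its interval overlapped all others. RBFOX2, with 2.24 (1.73 to 2.86), still lay above MBNL1 and ESRP1 but overlapped QKI, with 1.16 (0.698 to 1.81), and only CELF1, with 3.32 (2.22 to 4.77), stayed clear of all 3. With sites within 50 nt merged instead, CELF1 had 28 sites, or 0.321 per kb. PTBP3 kept its 40 sites, or 0.345 per kb, and was then the densest. Whether the intervals of the genes stayed apart under this setting was not worked out. With every site counted, the interval of HNRNPM, with its 14 sites, overlapped all others, and within each of the 2 groups of 3 genes all intervals overlapped. Over the 7 genes together, 990 kb in all, the density was 2.43 sites per 10 kb (2.13 to 2.75). The gene with the most sites was thus not the densest: RBFOX2 is the longest of the 7 at 289.8 kb, and CELF1 spans 87.3 kb.

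**Figure D2:**
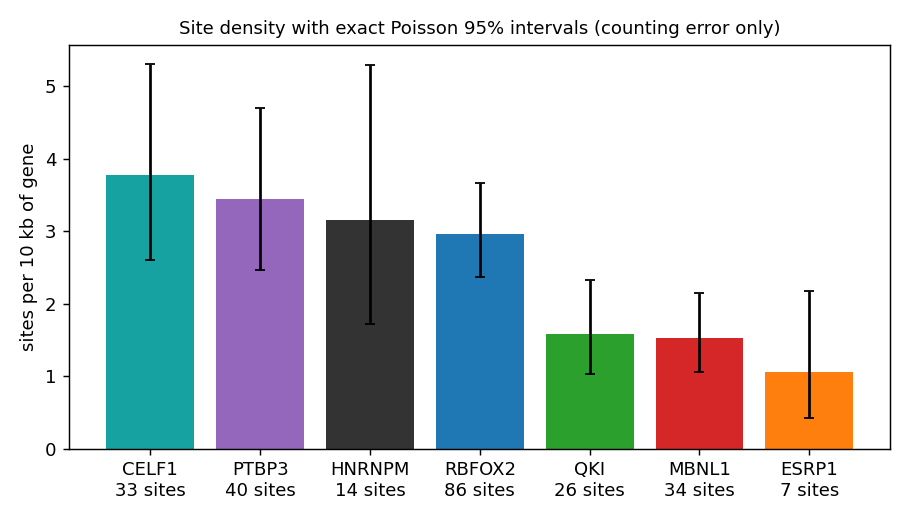
Bars give the sites per 10 kb of gene (vertical axis) for the 7 genes in falling order, and the error bars are exact Poisson 95% intervals. CELF1 at 3.78, PTBP3 at 3.45 and RBFOX2 at 2.97 have intervals above those of QKI, MBNL1 and ESRP1, of which CELF1 alone kept this with lower sites left out, while the interval of HNRNPM overlaps all.

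The height of a site is a whole number that the authors gave it, marked PH in their file and read here as the number of reverse transcription stops at the site, which the file does not define. Sites in the 7 genes had a median height of 15 (quartiles 10 and 23, range 6 to 92), against a median of 11 in the whole list (quartiles 8 and 17). Of the 240 sites, 99 (41.2%) had a height of at least 17, the upper quartile, against 27.2% of all sites. The difference was uneven among the genes: 23 of 33 sites (69.7%) reached this height in CELF1, 20 of 34 (58.8%) in MBNL1 and 8 of 14 (57.1%) in HNRNPM. With its 14 sites, the exact binomial 95% interval of HNRNPM was 28.9 to 82.3%. The counts were 11 of 26 (42.3%) in QKI, 25 of 86 (29.1%) in RBFOX2, 2 of 7 (28.6%) in ESRP1 and 10 of 40 in PTBP3, so the last 3 genes lay near the share of the whole list. The smallest P value in the authors' list, 1e-100, was given to 56 of the 240 sites (23.3%), against 16.2% of all sites. It was most frequent in MBNL1, at 13 of 34 sites (38.2%), with HNRNPM (35.7%) and CELF1 (33.3%) close behind, and no ESRP1 site had it. The exact binomial 95% interval in HNRNPM, 12.8 to 64.9%, included the share of the whole list. This P value did not simply follow height, since an MBNL1 site of height 51 lacked it and another of height 26 had it. Among the 240 sites the next smallest of the authors' P values was 4.11e-14, at a CELF1 site of height 24. Whether 1e-100 stands for a lower limit of the authors' calculation was not tested. The shares of sites with this value are therefore not a ranking of the genes by strength of binding.

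**Figure D3:**
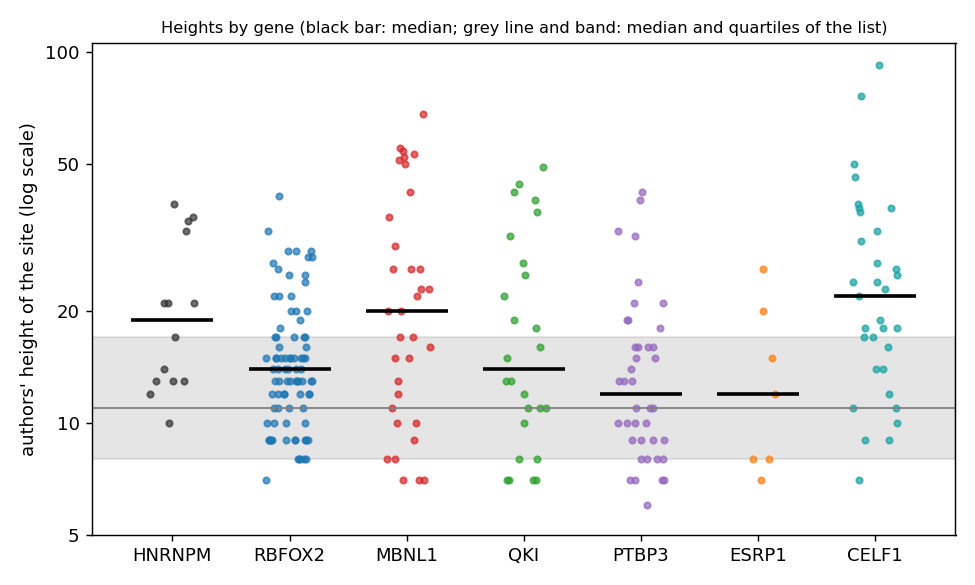
Points are single sites, with the authors' height on a log scale (vertical axis) by gene, black bars are medians, and the grey line and band are the median of 11 and the quartiles of 8 and 17 of the whole list. The medians of CELF1 (22), MBNL1 (20) and HNRNPM (19) lie above the band, while those of the other 4 genes lie within it. This split is not sharp. The 95% intervals of the medians of MBNL1 (13 to 26) and HNRNPM (13 to 35) reach into the band. That of CELF1 (17 to 27) begins at its upper edge, and those of QKI (11 to 25) and ESRP1 (7 to 26) reach above it.

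The authors placed each site in a tag cluster and gave every cluster 1 expected height, marked PH0, neither of which the file defines. Expected heights were also higher in the 7 genes, with a median over the sites of 0.72 against 0.51 in the whole list. Divided by the expected height, the heights in the 7 genes had a median of 22.0 (quartiles 16.6 and 30.2), and those of the whole list one of 23.7 (18.3 and 30.6). On this relative scale the median of the 7 genes was thus the lower one. The smallest P value did not simply follow this ratio either. The MBNL1 site chr3:152086894-152086914, of height 26, had it at 10.97 times its expected height. The MBNL1 site of height 51 lacked it at 27.7 times. Among the genes the median ratio was highest in QKI at 28.2 and lowest in RBFOX2 at 19.1. MBNL1 sites had the highest median expected height, 1.11, and ESRP1 sites the lowest, 0.50.

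**Figure D4:**
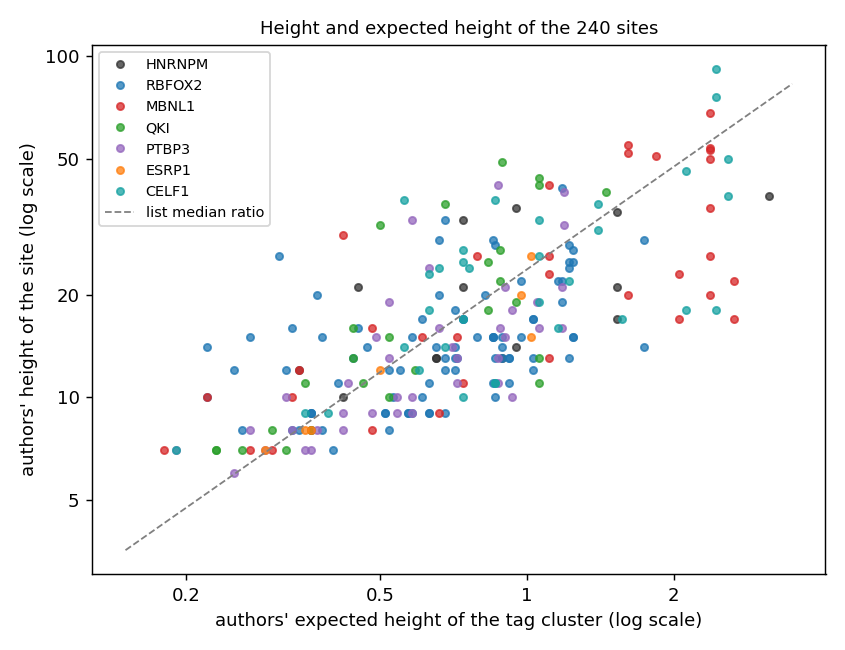
Each point is 1 of the 240 sites, with the expected height of its tag cluster (horizontal axis) and its own height (vertical axis), both the authors' values on log scales. The dashed line is the median ratio of the whole list, 23.7, and the sites scatter on both sides of it, with CELF1 and MBNL1 reaching furthest up.

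HNRNPM, on the plus strand of chromosome 19 (chr19:8509650-8554003), encodes the precipitated protein, so its 14 sites are places where hnRNPM touched the RNA of its own gene. They made up 1.70% of the 824 sites on chromosome 19. The lowest had a height of 10, the median was 19 and the highest was 39, and 13 of the 14 lay above the list's median of 11. The tallest, chr19:8543117-8543137, lay 33.5 kb from the gene start. It was 12.5 times its expected height of 3.13, the largest expected height among the 240 sites. The next, at chr19:8521428-8521448 with a height of 36 and at chr19:8527376-8527396 with a height of 35, were 37.9 and 22.9 times theirs.

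When HNRNPM was divided into 3 equal parts of 14.8 kb, the first and the middle part held 5 sites each and the last part 4. The longest stretch without a site was the final 7.57 kb of the gene, 17.1% of its length. The densest 10 kb held 8 of the 14 sites, from 9.74 to 18.2 kb, with heights of 10 to 36. The fullest tag cluster, chr19:8527376-8527855, had 3 sites with heights of 35, 21 and 17 in order along the transcript. The authors' running numbers of the HNRNPM sites spanned 96 numbers, of which 14 (14.6%) were in the list, against 24.2% over the whole list and 23.4% to 36.4% in the other 6 genes. The file does not say what the missing numbers were.

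ESRP1, on the plus strand of chromosome 8 (chr8:95653364-95719694), encodes an epithelial splicing regulator and carried the fewest sites. Its 7 sites lay 18.2, 28.2, 29.3, 30.04, 51.4, 53.7 and 57.5 kb from the gene start, and their heights were 7, 8, 15, 26, 12, 8 and 20 in that order. The first 18.2 kb, the 21.4 kb between the fourth and the fifth site and the last 8.79 kb were empty. The tallest, chr8:95683391-95683411, was 25.5 times its expected height, and 11.8% of all sites in the list were at least as tall. It shared a tag cluster with the site of height 15, and the other 5 sites were alone in theirs. Of the 7 sites, 2 (28.6%) had another site within 1 kb, against 57.3% in the whole list, and with 7 sites the exact binomial 95% interval was 3.67 to 71.0%.

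RBFOX2, on the minus strand of chromosome 22 (chr22:36134783-36424585), encodes a protein that binds GCAUG elements beside exons and is linked to mesenchymal exon use. It was crowded at its beginning. Of its 86 sites, 55 (64.0%, exact binomial 95% interval 52.9 to 74.0) lay in the first of 3 equal parts, 26 in the middle part and 5 in the last. The first of 10 equal parts held 26 sites and the second 20, so that 46 sites (53.5%) lay in the first 58.0 kb. The other 8 of these parts held from 0 to 15 sites each. The median position of its sites was 18.0% of the gene length, the earliest of the 7 genes. After a site 225 kb from the start, 55.6 kb followed without any, and a single site of height 8 stood near the far end, 281 kb from the start.

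Although numerous, the RBFOX2 sites were moderate in height. The lowest was 7, the median 14 and the highest 41, and 1 of the 86 reached 40, against 4.44% of all sites. The tallest, chr22:36410977-36410997, lay 13.6 kb from the gene start and was 34.7 times its expected height. The next had heights of 33, at 23.2 kb, and 29, a height that 3 sites shared, and the fullest tag clusters held 4 sites. The highest ratio, 83.9, was found further along, at a site of height 26. The medians in the first, middle and last part were 15, 13 and 9. The densest 10 kb, from 5.12 to 13.6 kb, held 14 sites in 7 tag clusters. On a fixed 10-kb grid over the whole list, 37 of 21871 occupied bins of 1 strand (0.169%) held 14 sites or more. The RBFOX2 bin with 14 sites was picked as the fullest of 21 in the gene. RBFOX2 had 8.89% of all sites on chromosome 22, the largest share of a chromosome among the 7 genes.

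MBNL1, on the plus strand of chromosome 3 (chr3:151961617-152183569), encodes a muscleblind protein, a regulator of exon and 3′ end choice that repeat RNA captures in myotonic dystrophy. Most of its height was in 1 short stretch. The densest 10 kb, in which the outermost sites were 6.27 kb apart (chr3:152084542-152090829), held 15 of the 34 sites and 60.4% of the summed height. Within it the heights ran from 10 to 68 with a median of 26, against a median of 15 for the other 19 sites. It included the tag cluster with the most sites of the 7 genes, chr3:152085599-152087185, with 7 sites of heights 36, 20, 54, 53, 50, 26 and 68 along the transcript. In the list, 104 of the 40129 clusters (0.259%) held 7 sites or more, but this one was picked as the fullest of 158 in the 7 genes.

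Elsewhere MBNL1 was sparse. The first 46.0 kb held no site, and 53.8 kb without a site followed directly after the dense stretch, 24.2% of the gene length. The middle of 3 equal parts held 23 sites (67.6%, exact binomial 95% interval 49.5 to 82.6) and 73.2% of the summed height. The tallest site outside the dense stretch had a height of 51 and lay 71.2 kb from the start. A cluster of 4 sites near the far end, chr3:152152083-152153630, had heights of 13, 42, 23 and 26. Over the 7 genes 10 sites (4.17%) had a height of at least 50, against 2.60% of all sites in the list. Of these 10, 7 were in MBNL1 and 3 in CELF1. At a height of at least 75 the shares were alike, 0.833% in the 7 genes and 0.842% in the list.

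QKI, on the plus strand of chromosome 6 (chr6:163835675-163999628), encodes a protein that binds ACUAA-type elements and acts in splicing and in the formation of circular RNAs. Its 26 sites ranged in height from 7 to 49, with a median of 14. The tallest, chr6:163851618-163851638, was alone in its tag cluster, 16.0 kb from the gene start, and was 55.1 times its expected height. The middle of 3 equal parts held 14 sites (53.8%, exact binomial 95% interval 33.4 to 73.4) and 63.4% of the summed height. The densest 10 kb, chr6:163917277-163925796, held 9 sites, and its 4-site cluster had heights of 44, 42, 11 and 13 along the transcript. A stretch of 26.1 kb without a site followed, and beyond it stood 4 sites of heights 7, 8, 13 and 16. The last 24.8 kb were empty.

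PTBP3, on the minus strand of chromosome 9 (chr9:114979995-115095944), encodes a polypyrimidine tract-binding protein related to PTBP1, a repressor of many exons. Its sites were widely spread, and it was the only gene of the 7 with a site in each of 10 equal parts. The first, middle and last of 3 parts held 18, 12 and 10 sites. The longest empty stretch was 15.3 kb, 13.2% of the gene length and the smallest share of the 7 genes. Filled parts and empty stretches both depend on the number of sites, 40 here against 14 in HNRNPM and 7 in ESRP1. Evenly spaced sites would lie 2828 nt apart in PTBP3. Relative to even spacing in each gene, its longest empty stretch exceeded those of HNRNPM, QKI and ESRP1. It was shorter than those of RBFOX2, MBNL1 and CELF1. The lowest site had a height of 6, the median was 12, near the 11 of the whole list, and the highest was 42. The densest 10 kb held 9 sites, from 8.92 to 16.2 kb, with heights of 7 to 42, and the fullest tag clusters held 3 sites. The tallest site, chr9:115086196-115086216, lay 9.74 kb from the gene start, and the next, chr9:114983321-114983341 with a height of 40, was 113 kb from it, near the far end. The next tallest, chr9:115060324-115060344 with a height of 33, lay between them at 35.6 kb. The middle part had a median height of 9.5, against 14 in both other parts.

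CELF1, on the minus strand of chromosome 11 (chr11:47487489-47574792), encodes a protein that binds GU-rich elements in splicing and in mRNA decay. With every site counted it had the highest density, and it had the highest median height, 22 (range 7 to 92). It also had the most summed height per kb, 9.98, against 1.45 in ESRP1, the lowest, and 6.72 in HNRNPM, the next after CELF1. Its tallest sites were the tallest of all 240: chr11:47545446-47545466 with a height of 92 and chr11:47545999-47546019 with 76. Both belonged to 1 tag cluster of 3 sites, 28.8 to 29.3 kb from the gene start, and the first of them ranked 232 by height in the whole list. The next had a height of 50 and lay 75.1 kb from the start.

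In CELF1 the far end held the most sites. The first of 3 equal parts held 12 sites, the middle part 5 and the last part 16 (48.5%, exact binomial 95% interval 30.8 to 66.5). Of 10 equal parts, the last held 9 sites and the one before it 7, against 2 and 5 in the first and the second, whereas 17.8 kb in between, from 53.7 to 71.4 kb, had none. The fullest cluster, chr11:47490621-47491677, had 4 sites with heights of 10 to 27, and the densest 10 kb, from 74.8 to 84.4 kb, held 9 sites. Of the 33 sites, 24 (72.7%, exact binomial 95% interval 54.5 to 86.7) had another site within 1 kb, against 57.3% of all sites. This was the highest share of the 7 genes, with MBNL1 next at 67.6%. Within 500 nt the share was 60.6%, against 58.8% in MBNL1 and 38.5% of all sites.

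**Figure D5:**
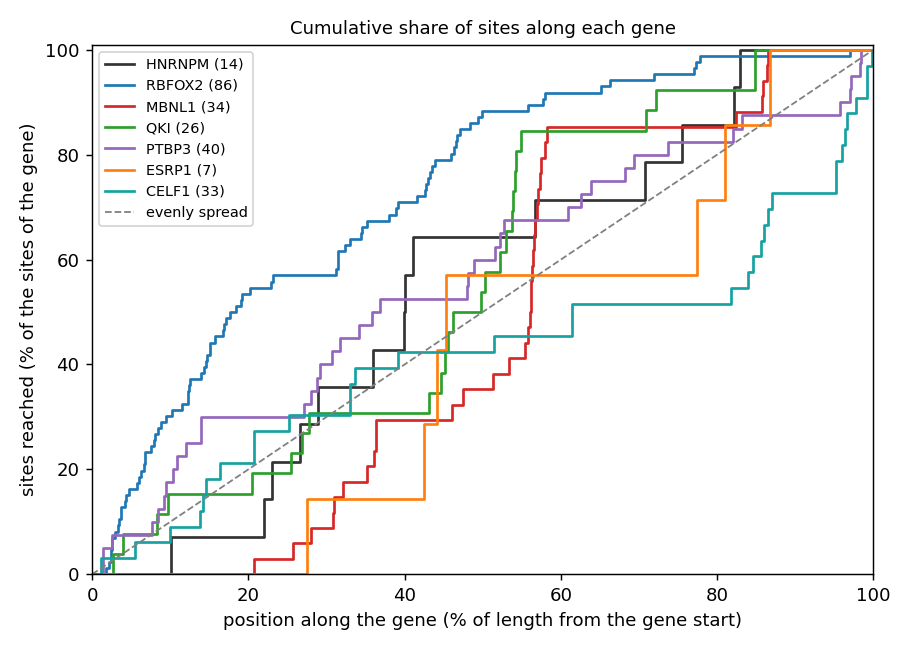
For each gene, the share of its sites reached (vertical axis, %) is drawn against the position from the gene start (horizontal axis, % of gene length), and the dashed line stands for evenly spread sites. RBFOX2 rises early, MBNL1 climbs steeply just past its middle, CELF1 climbs late, and PTBP3 rises throughout.

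Taken over the 7 genes, 105 sites (43.8%) lay in the first part, 88 (36.7%) in the middle part and 47 (19.6%) in the last part. The lead of the first part rested on RBFOX2: without it 32.5% of 154 sites lay in the first part, 40.3% in the middle part and 27.3% in the last. The fullest part differed among the genes: it was the first in RBFOX2 and PTBP3, the middle one in MBNL1 and QKI, and the last one in CELF1. In PTBP3 (29.3 to 61.5%) and CELF1 (30.8 to 66.5%) the exact binomial 95% interval of that share included an even split into 3 parts. In QKI (33.4 to 73.4%) it began at about that value. In HNRNPM and ESRP1 the 2 fullest parts held equal numbers.

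Within 1 kb, close neighbours were about as frequent as in the whole list, while within 5 kb and within tag clusters they were more frequent. Of the 240 sites, 142 (59.2%, exact binomial 95% interval 52.7 to 65.4) had a same-strand neighbour at a distance of up to 1 kb, close to the 57.3% of all sites. At 5 kb the share was 94.6%, against 84.5%. The sites fell into 158 tag clusters, of which 107 (67.7%) held 1 site, against 76.7% in the whole list. There were 15 pairs of neighbouring sites at most 59 nt apart, the closest 27 nt apart in CELF1, and both sites of each pair shared a cluster. In the 5 pairs of CELF1 the upstream site was always the taller, with heights of 38 and 11, 27 and 17, 38 and 14, 76 and 18, and 33 and 19. In the other genes it was taller in 5 of the 9 pairs of unequal height, and in the whole list in 65.5% of 2900.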

How the data were processed

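Both iCLIP libraries of 1 group of HMLE cells were represented by 1 deposited list of crosslink sites, each 21 nt wide. Per the submitters' processing notes, coordinates are on GRCh37. How reads were aligned, duplicates removed, libraries pooled and sites called is not given in the sources used here. As score, the authors deposited a whole number per site, called the height, which equalled the value PH in the site name. The expected height (PH0), the P value, the tag cluster and the running number were read from the same name. The deposited P values ran from 1e-100 to 9.99e-04.

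The members and the settings were chosen with earlier results of these data known. Gene limits were those given with the choice of the 7 genes, not checked against a GRCh37 annotation. The annotation at hand was on another build, so exons, introns, motifs and other splicing regulators were not analysed here. Positions are 1-based, and distances run from the gene start on the transcribed strand to the middle of a site. All 7 genes were named. By rule the text could give, for each, its 3 tallest sites, fullest cluster, densest 10 kb, longest empty stretch and outermost sites. Which of these are given, other single sites and the 10 equal parts were chosen after their values were seen. Intervals for shares are Clopper-Pearson and those for densities exact Poisson. Those for medians were read from the ordered values at binomial limits. The counting was tested on planted sites. Tables were made with pandas 2.3.3 and numpy 2.4.6 under Python 3.11.15, intervals with scipy 1.17.1, and figures with matplotlib 3.10.9.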

Additional observations from a re-analysis of the deposited data

How the results depend on the processing

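Of 72 alternative values, 63 lay inside the 95% interval around what is reported, or within 1.5 times a reported count. Some of these could not have moved and say nothing about stability. No site lay on the opposite strand or within 50 kb of a gene end, so counting either strand or widening the genes added no site. The density over the 7 genes, 0.243 sites per kb, was 0.212 with the genes widened by 10 kb and 0.181 with sites of at least median height, both by construction. The same height limit moved 2 of 7 densities of single genes out of their intervals, RBFOX2 (0.224 sites per kb) and PTBP3 (0.198, from 0.345). The other 4 alternatives moved 0 of 7 each. Among them, counting either strand or only whole intervals inside the gene left every density unchanged. Merging sites within 50 nt lowered CELF1 from 0.378 to 0.321, inside its interval but below PTBP3 at 0.345. The median height of 15 was 27 among the 56 sites of the smallest P, and 14 to 16 without any 1 gene. The share of sites in the first part of the gene fell from 43.8% to 32.5% without RBFOX2, an alternative chosen after seeing the data, and the last part rose to 27.3%. The share with a neighbour was 42.1% at 500 nt and 94.6% at 5 kb, by construction. Intron lengths and motif windows were not run without a GRCh37 genome. No paired analysis was possible because there is 1 condition and heights are not split by library, and no replicate could be left out. How far low sites were missed at this unknown depth cannot be stated.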
